A study of Homo sapiens with 16 samples.

Results

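The data describe 8 genes, the Src family kinases SRC, FGR, LYN, FYN, YES1, LCK and BLK and the kinase CSK, out of 60623 genes counted in each of 16 RNA-Seq libraries of MUTZ-3 cells. MUTZ-3 is an acute myeloid leukaemia (AML) line with inv(3), the rearrangement that places the stem cell transcription factor gene EVI1 (MECOM) under a distal GATA2 enhancer. The genes were chosen by name, with their inhibitor/DMSO and shEVI1/NTC ratios already known, so those ratios are given as a description and without a test.

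All cells were cultured in MEMalpha containing 20% FBS, 20% medium conditioned by the bladder carcinoma line 5637, and GM-CSF. The PARPi experiment comprised 10 libraries: 1 of cells without treatment (0 h) and 9 of cells exposed for 12, 24 or 48 h to DMSO, to 10 µM olaparib or to 1 µM talazoparib, both inhibitors of poly(ADP-ribose) polymerase. The knockdown experiment comprised 6 libraries of cells transduced with lentiviral pLKO.1 carrying the non-targeting control SHC002 (NTC), shEVI1-2531 or shEVI1-2532, selected with puromycin and harvested at day 3 or day 6. Each condition had 1 library from 1 cell line, the inhibitor doses differed, and the shRNA libraries are pools of transduced cells.

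Depth ranged from 55999673 to 72681943 counts in the PARPi experiment and from 95523038 to 120716213 after knockdown. Levels are CPM, counts scaled to a library total that was adjusted by TMM, and 3 counts correspond to 0.0231 to 0.0631 CPM on this scale. MECOM, the target of the shRNAs, had 40.6 and 37.2 CPM in the NTC libraries of day 3 and day 6, 13.2 and 17.5 CPM with shEVI1-2531, and 5.15 and 4.31 CPM with shEVI1-2532. All 6 myeloid progenitor and all 7 monocyte markers had more than 3 counts in at least 1 library of each experiment. Of the 5 epithelial markers, EPCAM, CDH1, KRT5 and TP63 did not, while UPK2 reached at most 17 counts and 0.181 CPM. Since these are bulk samples, fewer cells of a type and less RNA per cell cannot be told apart.

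Src family kinases are membrane-anchored tyrosine kinases with an SH3, an SH2 and a kinase domain. CSK phosphorylates a tyrosine in their C-terminal tail, which then binds the kinase's own SH2 domain and holds the enzyme closed, and phosphatases such as CD45 remove that phosphate. Active family members phosphorylate ITAM motifs in the chains of activating immune receptors, which recruits SYK, and ITIM motifs in inhibitory receptors, which recruits the phosphatases SHP-1 and SHIP. LYN and FGR are typical of myeloid cells, LCK of T cells and BLK of B cells, while SRC, FYN and YES1 are widely expressed.

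The end of the coding sequence is shown because it holds the tyrosine on which CSK acts. The last 30 coding bases before the stop codon are printed 5′ to 3′ on the coding strand, from the GENCODE 29 transcript with the longest complete coding sequence (GRCh38), with the tyrosine codon in capitals.
SRC, chr20:37403347-37403376, plus strand: gagccccagTACcagcccggggagaacctc
FGR, chr1:27612917-27612946, minus strand: gaaccacagTACcagcccggggatcagaca
FYN, chr6:111661742-111661771, minus strand: gagccccagTACcaacctggtgaaaacctg
YES1, chr18:724427-724456, minus strand: gagccacagTACcagccaggagaaaattta
LCK, chr1:32285684-32285713, plus strand: gccacagagggccagTACcagcctcagcct
CSK, chr15:74802481-74802510, plus strand: gagcacatcaaaacccacgagctgcacctg
SRC, FGR, FYN and YES1 carried the tyrosine codon as codon 7 counted back from the stop codon, and LCK as codon 5. CSK, which is not regulated through such a tail, had no tyrosine codon in this stretch. The SRC and FYN tails shared 25 of 30 bases, SRC and YES1 23, SRC and FGR 22, and FGR and FYN 19.

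In the files the genes span chr20:37344685-37406050 (SRC, plus strand), chr1:27612064-27635185 (FGR, minus), chr6:111660332-111873452 (FYN, minus), chr18:721588-812546 (YES1, minus), chr1:32251239-32286165 (LCK, plus) and chr15:74782057-74803198 (CSK, plus). No annotated gene overlapped SRC, FGR or FYN. The genes that overlapped the other members held at most 33 counts over the 16 libraries together. YES1 has a pseudogene, YES1P1, so a small part of its reads could have been counted elsewhere.

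Per kilobase of exon, LYN was the most abundant family transcript in each of the 16 libraries. Its level was lowest at 25.1, had a median of 34.3 and was highest at 47.1 CPM per kb. YES1 followed with a median of 6.13 (4.30 to 12.5), FYN with 3.45 (2.03 to 4.93), FGR with 2.67 (0.237 to 4.37), SRC with 1.35 (0.563 to 2.96) and LCK with 0.876 CPM per kb (0.125 to 1.87). The ranges of neighbours in this order overlapped from YES1 down to LCK, and the range of LYN overlapped with none of the others. BLK had 0 counts in all 16 libraries, which with 3 counts as the limit allows at most 0.0231 to 0.0631 CPM per library. CSK, at a median of 33.6 CPM per kb (22.3 to 48.4), was in the range of LYN.

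The make-up of the family shifted with treatment around the LYN majority. LYN accounted for 64.6% of the summed per-kilobase level in the shEVI1-2532 day 3 library and for 77% with olaparib at 48 h, the extremes among the 16 libraries. With DMSO at 12, 24 and 48 h, SRC accounted for 2.10%, 1.42% and 1.05% and FGR for 4.78%, 4.05% and 1.13%. With olaparib these shares were 4.76%, 4.90% and 4.20% for SRC and 6.94%, 7.16% and 3.66% for FGR, and with talazoparib 5.44%, 4.90% and 4.16% for SRC and 6.04%, 7.06% and 6.24% for FGR. Each was above DMSO of its hour, but the FGR share with olaparib at 48 h was below that with DMSO at 12 and 24 h. With NTC at day 3 and day 6, SRC accounted for 1.38% and 1.62% and FGR for 0.579% and 0.787%. With shEVI1-2531 at these days, SRC accounted for 2.74% and 3.17% and FGR for 7.12% and 7.99%. With shEVI1-2532, SRC accounted for 4.53% and 2.89% and FGR for 5.25% and 9.04%.

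**Figure D1:**
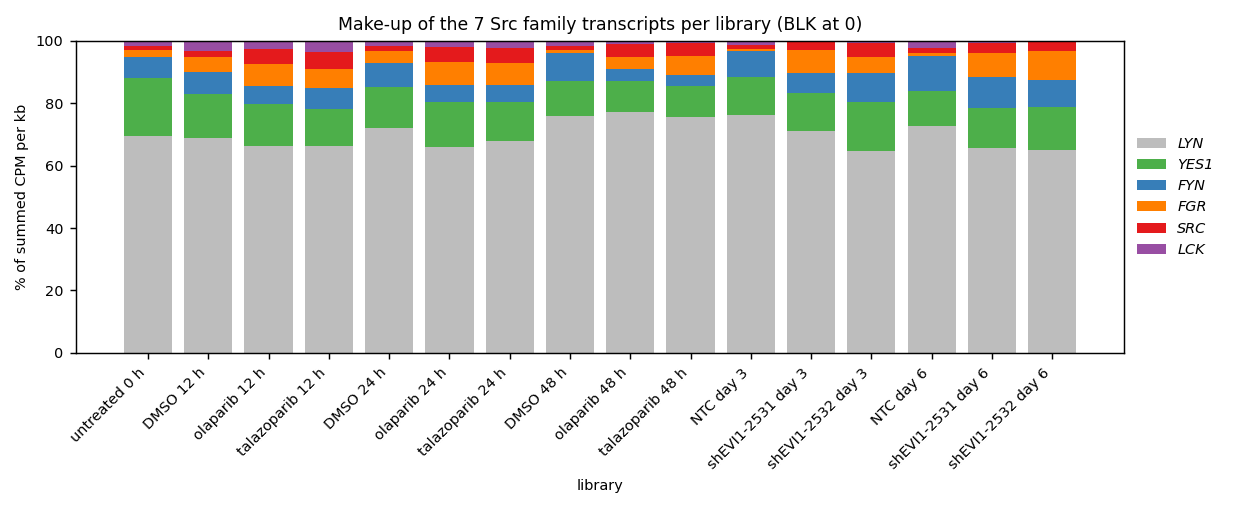
Stacked bars give the percentage of the summed TMM-scaled CPM per kilobase of exon (y axis) that each Src family transcript took in each of the 16 libraries (x axis). LYN takes 64.6% to 77% of every bar, and the FGR segment is widest, at 9.04%, in the shEVI1-2532 day 6 library.

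SRC, the founding member of the family, was higher in every inhibitor library and every shEVI1 library than in its control. SRC stood at 4.84 CPM in untreated cells and at 6.62, 4.09 and 3.72 CPM with DMSO at 12, 24 and 48 h. With olaparib it stood at 15.8, 18.2 and 16.6 CPM and with talazoparib at 18.3, 19.1 and 15.8 CPM at these times. The 6 inhibitor libraries lay above the untreated and DMSO libraries without overlap. Relative to DMSO, SRC was 2.39-, 4.44- and 4.45-fold higher with olaparib and 2.76-, 4.68- and 4.24-fold higher with talazoparib. The fitted mean inhibitor effect was a log2 fold change of 1.88 ± 0.18 (SE, 9 libraries), and the change of the effect per doubling of the hours was 0.38 ± 0.15.

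SRC stood at 3.64 and 4.51 CPM in the NTC libraries of day 3 and day 6, at 6.26 and 8.45 CPM with shEVI1-2531 and at 15.7 and 9.04 CPM with shEVI1-2532. The shEVI1 libraries did not overlap with the NTC libraries. SRC was 1.72- and 1.87-fold the NTC level with shEVI1-2531 and 4.32- and 2.0-fold with shEVI1-2532, so the shEVI1-2532 day 3 library stood apart from the other 3. The fitted log2 fold changes were 0.85 ± 0.27 for shEVI1-2531 and 1.60 ± 0.28 for shEVI1-2532 (SE, 6 libraries in the fit).

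FGR, a kinase of granulocytes and monocytes that signals from Fc receptors and integrins, showed the largest ratios among the 8 genes in the knockdown experiment, while SRC had the larger ratio in 5 of the 6 inhibitor libraries. FGR stood at 5.46 CPM in untreated cells and at 8.11, 6.29 and 2.13 CPM with DMSO at 12, 24 and 48 h, so the vehicle level at 48 h was 0.263 times that at 12 h. With olaparib it stood at 12.4, 14.3 and 7.74 CPM and with talazoparib at 10.9, 14.8 and 12.7 CPM. The olaparib level at 48 h lay within the range of the DMSO libraries of other hours, and the other 5 inhibitor libraries lay above all DMSO libraries. Relative to DMSO of the same hour, FGR was 1.53-, 2.27- and 3.63-fold higher with olaparib and 1.35-, 2.35- and 5.96-fold higher with talazoparib. The fitted mean effect was 1.26 ± 0.30 and its change per doubling of the hours 0.83 ± 0.15 on the log2 scale.

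In the NTC libraries FGR was the least abundant family member with reads, and in the shEVI1 libraries it was close to FYN per kilobase (2.52 to 4.37 against 2.32 to 4.93 CPM per kb). The NTC libraries had 0.823 and 1.18 CPM at day 3 and day 6. FGR stood at 8.74 and 11.5 CPM with shEVI1-2531 and at 9.79 and 15.2 CPM with shEVI1-2532. The 4 shEVI1 libraries were 9.71- to 12.9-fold above NTC of the same day, and the 95% counting intervals of the log2 ratios lay between 3.04 and 3.94. The fitted log2 fold changes were 3.34 ± 0.21 for shEVI1-2531 and 3.63 ± 0.21 for shEVI1-2532. The untreated cells of the PARPi experiment, at 5.46 CPM, lay between the NTC and the shEVI1 levels, but the experiments were scaled separately.

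The summed level of monocyte markers reached higher values with both inhibitors and both shRNAs than with their controls, as FGR and SRC did, although not each marker did. It did not follow these genes in size. FGR was 9.71- to 12.9-fold above NTC over both shRNAs, while the sum differed between the shRNAs. With olaparib, FGR went from 12.4 CPM at 12 h to 7.74 CPM at 48 h, while the sum was lowest at 12 h. The summed level of the 7 markers was 474 to 614 CPM in the DMSO, 509 to 2376 CPM in the olaparib and 600.3 to 4629 CPM in the talazoparib libraries. It was 344 to 423 CPM in the NTC, 1288 to 1333 CPM in the shEVI1-2531 and 4925 to 6231 CPM in the shEVI1-2532 libraries. LYZ alone stood at 154 to 197 CPM with NTC and at 4464 to 5605 CPM with shEVI1-2532, so it gave most of the shEVI1-2532 sum. None of the 7 markers was at or under 3 counts in all libraries, but CD68, FCGR3A and CD163 reached at most 25, 81 and 197 counts. ITGAM was higher in each inhibitor and shEVI1 range, at 25.0 to 36.9 CPM with DMSO, 44.5 to 123 CPM with olaparib, 61.9 to 229 CPM with talazoparib, 24.6 to 40.9 CPM with NTC, 79.3 to 120.3 CPM with shEVI1-2531 and 229.7 to 406 CPM with shEVI1-2532. CSF1R did not share this, at 188 to 234, 179 to 232, 186 to 279.6, 122 to 227, 99.9 to 179 and 191 to 217 CPM in the same order. CD14 was lower at later DMSO hours, as FGR was, at 8.15, 5.37 and 2.77 CPM. With olaparib CD14 went from 13.3 CPM at 12 h to 64.7 CPM at 48 h, unlike FGR, and with talazoparib from 10.6 to 96.7 CPM. At day 3 and day 6 CD14 stood at 0.435 and 0.579 CPM with NTC. The shEVI1-2531 libraries had 10.6 and 13.8 CPM of CD14 and the shEVI1-2532 libraries 11.9 and 25.5 CPM. At 12 h, where SRC was already 2.39- and 2.76-fold higher, the sum was 509 CPM with olaparib and 600.3 CPM with talazoparib, against 474 CPM with DMSO. The part of these markers in the FGR and SRC values was not tested.

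LYN, the main Src family kinase of myeloid cells and one that signals through both activating and inhibitory receptors, stayed close to its controls. LYN stood at 291 CPM in untreated cells and at 208, 199 and 256 CPM with DMSO at 12, 24 and 48 h. With olaparib it stood at 211, 234 and 290.1 CPM and with talazoparib at 214, 254 and 274 CPM. The DMSO and inhibitor ranges overlapped, and the ratios to DMSO ran from 1.01 to 1.28. In the knockdown libraries LYN stood at 193 and 194 CPM with NTC, 155 and 167 CPM with shEVI1-2531 and 215 and 194 CPM with shEVI1-2532. Both shEVI1-2531 libraries were below NTC, at 0.806 and 0.861 times its level, and the shEVI1-2532 libraries were at 1.11 and 0.999 times. The fitted log2 differences were 0.16 ± 0.10 for the inhibitors, -0.26 ± 0.13 for shEVI1-2531 and 0.08 ± 0.13 for shEVI1-2532.

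FYN, a broadly expressed family member that also acts in T cell and myeloid receptor signalling, differed from its control mainly at 48 h of inhibitor. FYN stood at 34.0 CPM in untreated cells, and the DMSO level was 25.0, 25.6 and 35.9 CPM at 12, 24 and 48 h. Olaparib libraries had 22.7, 23.4 and 18.3 CPM and talazoparib libraries 25.9, 23.6 and 15 CPM. At 12 and 24 h the ratios to DMSO were 0.907 to 1.03, and at 48 h they were 0.510 with olaparib and 0.419 with talazoparib, where DMSO itself was at its highest. The fitted change per doubling of the hours was -0.54 ± 0.13 on the log2 scale. The shRNAs gave no common direction: FYN stood at 25.6 and 35.7 CPM with NTC, 17.2 and 29.7 CPM with shEVI1-2531 and 36.5 and 31.0 CPM with shEVI1-2532.

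YES1, a broadly expressed kinase closely related to SRC, differed more between untreated and vehicle cells than between vehicle and inhibitor. It stood at 63.8 CPM in untreated cells and at 34.9, 29.6 and 31.0 CPM with DMSO, or 0.463 to 0.548 times the untreated level. Under olaparib it stood at 35.2, 42.6 and 31.1 CPM and with talazoparib at 31.4, 38.3 and 29.5 CPM. Only at 24 h were both inhibitor libraries above DMSO beyond counting error, at 1.44 and 1.29 times its level. In the knockdown experiment YES1 stood at 25.6 and 24.7 CPM with NTC, 21.9 and 27.4 CPM with shEVI1-2531 and 43.3 and 34.4 CPM with shEVI1-2532. Both shEVI1-2532 libraries lay above the other 4, and the fitted log2 fold changes were 0.63 ± 0.18 for shEVI1-2532 and -0.03 ± 0.18 for shEVI1-2531.

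LCK, the kinase that phosphorylates the T cell receptor chains, had the lowest median per kilobase of the members with reads. LCK stood at 3.88 CPM in untreated cells and at 5.27, 2.62 and 3.23 CPM with DMSO at 12, 24 and 48 h. The olaparib libraries had 4.66, 3.77 and 2.10 CPM and the talazoparib libraries 6.23, 4.62 and 1.39 CPM. The ratios to DMSO were 0.885 and 1.18 at 12 h, 1.44 and 1.76 at 24 h, and 0.651 and 0.430 at 48 h, for olaparib and talazoparib respectively. The inhibitor libraries thus lay above DMSO at 24 h, where DMSO was lowest, and below it at 48 h, and the fitted mean effect was -0.07 ± 0.29.

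All 4 shEVI1 libraries held less LCK than NTC of the same day. LCK stood at 1.71 and 3.53 CPM with NTC at day 3 and day 6, at 0.416 and 0.845 CPM with shEVI1-2531 and at 1.25 and 0.788 CPM with shEVI1-2532. In 3 of these libraries, with 37, 102 and 74 counts, LCK was at 22.4% to 24.3% of NTC, and the shEVI1-2532 day 3 library was at 73.2%. The NTC level itself was 2.06-fold higher at day 6 than at day 3. The fitted log2 fold changes were -2.03 ± 0.39 for shEVI1-2531 and -1.24 ± 0.39 for shEVI1-2532.

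T cell markers were read beside LCK. All 6 had reads, with CD5 at no more than 6 counts in any library, and their summed level was 8.94 to 10.5 CPM with NTC, 3.69 to 7.62 CPM with shEVI1-2531 and 4.35 to 4.64 CPM with shEVI1-2532. It was 7.51 to 9.75 CPM with DMSO, 8.79 to 16.3 CPM with olaparib and 11 to 14 CPM with talazoparib. CD3E and TRAC were lower with both shRNAs, as LCK was, with CD3E at 5.43 to 7.80 CPM with NTC, 1.19 to 1.23 CPM with shEVI1-2531 and 1.69 to 2.26 CPM with shEVI1-2532. CD2 did not follow this, at 0.825 to 1.13 CPM with NTC, 1.72 to 5.15 CPM with shEVI1-2531 and 0.489 to 0.501 CPM with shEVI1-2532. Nor did CD3D, at 0.980 to 1.16, 0.307 to 0.719 and 1.18 to 1.31 CPM in the same order. The part of these markers in the LCK values was not tested. Of the 6 B cell markers, MS4A1 and PAX5 had at most 3 counts in any library, beside the absence of BLK reads.

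CSK, the kinase that holds the family in check, was lower at later hours in the vehicle series and lower again with inhibitor at 24 and 48 h. CSK stood at 221 CPM in untreated cells and at 204, 178 and 142 CPM with DMSO at 12, 24 and 48 h. With olaparib it stood at 201, 151 and 112 CPM and with talazoparib at 201, 137 and 118 CPM. The ratios to DMSO were 0.987 and 0.986 at 12 h, 0.846 and 0.768 at 24 h, and 0.793 and 0.836 at 48 h. The vehicle level at 48 h was 0.696 times that at 12 h, a larger step than either inhibitor showed against DMSO of its hour. In the knockdown experiment CSK stood at 132 and 203 CPM with NTC, 102 and 150.2 CPM with shEVI1-2531 and 156 and 173 CPM with shEVI1-2532. Both shEVI1-2531 libraries were lower than NTC, at 77.2% and 73.9%, whereas shEVI1-2532 was at 119% on day 3 and 85.3% on day 6.

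**Figure D2:**
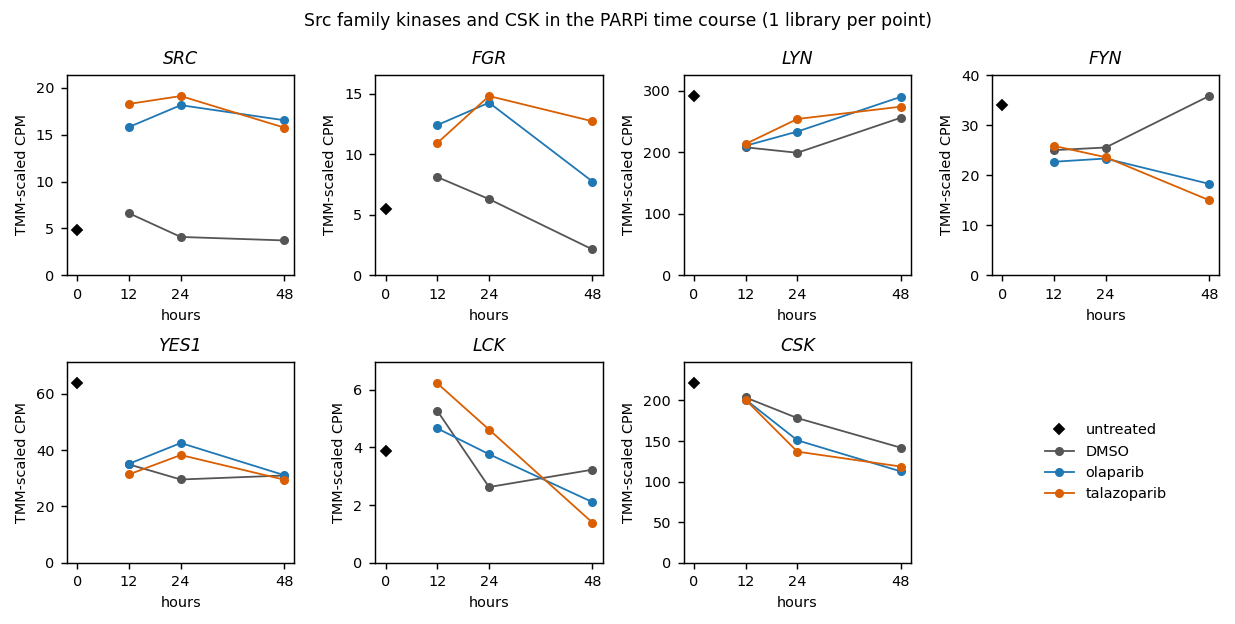
Each panel plots TMM-scaled CPM (y axis, from 0) of 1 gene against hours (x axis) for untreated, DMSO, olaparib and talazoparib libraries, 1 library per point, with lines joining the times of a treatment. SRC separates at 12 h already, at 6.62 CPM with DMSO against 15.8 and 18.3 CPM, FYN only at 48 h, and YES1 and CSK are highest in untreated cells.

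**Figure D3:**
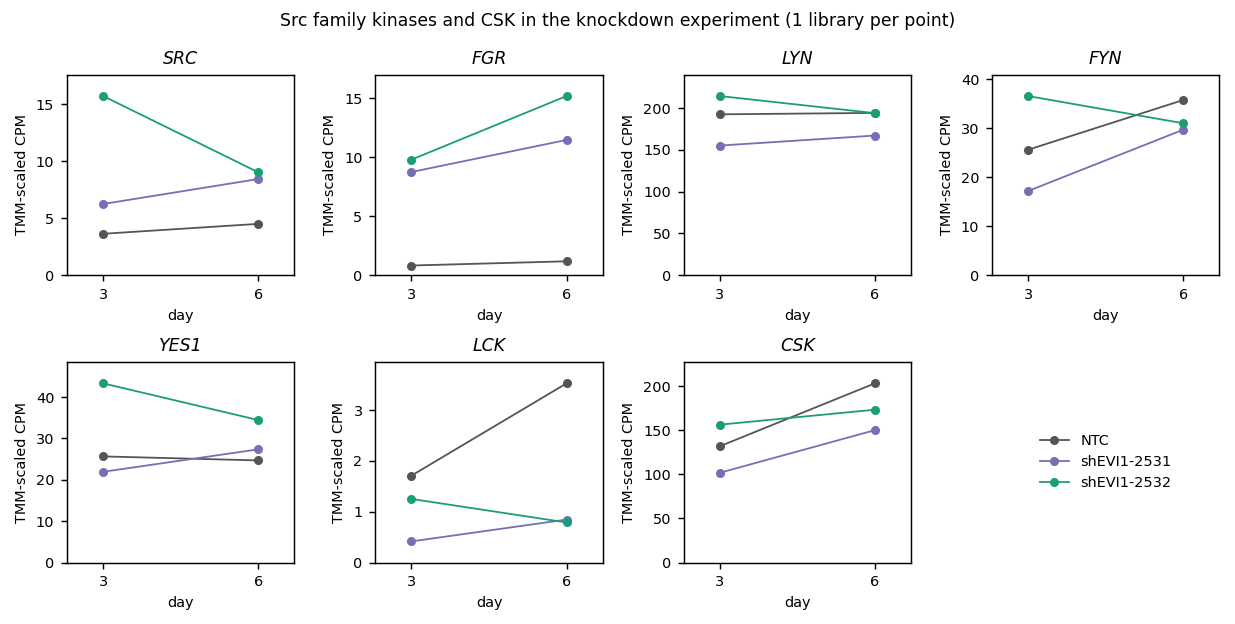
Each panel plots TMM-scaled CPM (y axis, from 0) of 1 gene at day 3 and day 6 (x axis) for NTC, shEVI1-2531 and shEVI1-2532, 1 library per point. FGR is at 0.823 and 1.18 CPM with NTC and at 8.74 CPM or more with either shRNA, and LCK is highest with NTC.

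The summed family level exceeded CSK in all libraries except NTC day 6. Per kilobase, the 7 family transcripts summed to 1.09, 1.15 and 1.76 times CSK with DMSO at 12, 24 and 48 h. This ratio was 1.17, 1.74 and 2.47 with olaparib and 1.18, 2.02 and 2.26 with talazoparib. It was thus higher than in DMSO in each of the 6 inhibitor libraries, by a small step at 12 h. In the knockdown experiment it was 1.42 and 0.970 with NTC, 1.59 and 1.26 with shEVI1-2531 and 1.57 and 1.27 with shEVI1-2532. LYN gave most of this sum, so the ratio mainly set LYN against CSK.

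**Figure D4:**
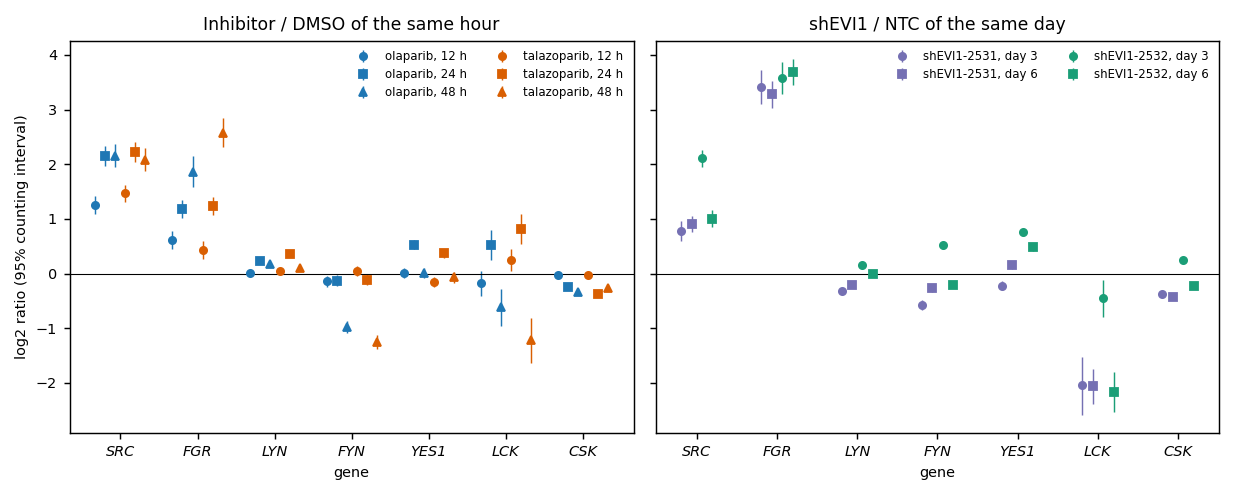
Points are log2 ratios (y axis) of each gene (x axis) in 1 inhibitor library to DMSO of the same hour (left) or in 1 shEVI1 library to NTC of the same day (right), with bars giving the 95% exact interval of the counts only. FGR lies at 3.28 to 3.68 in the knockdown panel, while LYN lies between -0.31 and 0.35 in both panels.

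The difference between the days did not choose the genes and could be tested. The difference between the shRNAs is made of the shEVI1/NTC ratios already known. Its p-values for the members are therefore a description and not independent evidence. Of 18606 genes tested with edgeR's quasi-likelihood test, 24.2% differed between shEVI1-2532 and shEVI1-2531 at an adjusted p under 0.05. Of the 7 members tested, 1 passed: YES1 was higher with shEVI1-2532 by 0.65 ± 0.18 on the log2 scale (adjusted p = 0.0208). The other 6 differed in the same direction without passing, CSK by 0.42 ± 0.14 (adjusted p = 0.0526), SRC by 0.75 ± 0.27 (adjusted p = 0.0644), FYN by 0.59 ± 0.22 (adjusted p = 0.0713) and LYN by 0.34 ± 0.13 (adjusted p = 0.0718). FGR differed by 0.29 ± 0.18 (adjusted p = 0.293) and LCK by 0.79 ± 0.41 (adjusted p = 0.184). MECOM was lower with shEVI1-2532 (-1.70 ± 0.20, adjusted p = 0.000138).

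These calls depended on the processing and on single libraries. YES1 no longer passed with library totals as scaling (adjusted p = 0.0724) or without the day in the model (adjusted p = 0.181). SRC and FYN passed with DESeq2 (adjusted p = 0.0276 and 0.035), and SRC, FYN and CSK without the count filter (adjusted p = 0.00729, 0.0125 and 0.0405). YES1 also no longer passed without the day 3 library of shEVI1-2531 (0.40) or of shEVI1-2532 (0.43). Without the day 6 library of shEVI1-2531, SRC (1.05), FYN (0.89) and LCK (1.16) passed, and without that of shEVI1-2532 they passed as well (1.30, 1.01 and 1.60), as did CSK (0.64). LCK was at -0.10 without the day 3 library of shEVI1-2532. Over all alternatives the adjusted p ran from 0.00102 to 0.318 for YES1, 0.000396 to 0.853 for SRC, 0.000889 to 0.807 for FYN and 0.00616 to 0.56 for CSK.

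Between day 6 and day 3, 23.8% of the 18606 genes differed, 2 of the 7 members tested among them. FGR was higher at day 6 by 0.51 ± 0.16 (adjusted p = 0.0327) and CSK by 0.44 ± 0.12 on the log2 scale (adjusted p = 0.018). Adjusted p was 0.189 for FYN and 0.316 for LCK, and SRC, LYN and YES1 were within 0.03 of no difference. FGR no longer passed without NTC day 3 (0.49), NTC day 6 (0.49), shEVI1-2531 day 3 (0.58), shEVI1-2532 day 3 (0.45) or shEVI1-2532 day 6 (0.45). CSK no longer passed without NTC day 3 (0.33), NTC day 6 (0.33) or shEVI1-2531 day 3 (0.39). Over all alternatives adjusted p ran from 0.00885 to 0.207 for FGR and from 0.000544 to 0.133 for CSK. Without either shEVI1-2532 library FYN (0.63) and LCK (1.03) passed.

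The signalling partners of the family were read in 5 lists of 100 genes in all, of which 90 passed the count filter in the PARPi experiment and 91 in the knockdown experiment. The lists were chosen with earlier results of these data known. The counts and p-values of list genes here and below are therefore a description and not independent evidence. A gene was called in the inhibitor fits at an adjusted p under 0.05 and in the shRNA fits with a log2 fold change beyond 1 as well (edgeR's quasi-likelihood test, adjusted over all genes tested). In the mean inhibitor effect 3.16% of 17218 genes were called higher and 1.01% lower, and of the 90 list genes 3 were higher and 0 lower. In the change of the effect per doubling of the hours 10% were called higher and 9.82% lower, and of the 90 list genes 25 were higher and 6 lower. For shEVI1-2532, 10.7% of 18606 genes were called higher and 11% lower, and of the 91 list genes 26 and 8. For shEVI1-2531, 3.69% were called higher and 4.28% lower, and of the 91 list genes 8 and 5. The median log2 value over all genes tested was -0.01 for the mean effect and for the change with hours, 0.00 for shEVI1-2532 and 0.01 for shEVI1-2531.

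These splits depended on the scaling. Scaling by library totals moved the median of all genes by -0.11 for the change with hours, -0.30 for shEVI1-2532, -0.17 for shEVI1-2531, -0.13 for the shRNA difference and 0.15 for the day on the log2 scale. The share of calls that were higher went from 50.4% to 31% for the change with hours, from 49.2% to 28.7% for shEVI1-2532 and from 46.3% to 30.3% for shEVI1-2531. It went from 50.4% to 33.7% for the shRNA difference and from 50.2% to 73.9% for the day.

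Among the controllers of the family, the receptor phosphatase gene PTPRE, whose product removes the inhibitory tail phosphate, was called in 3 comparisons. PTPRE stood at 47.5, 32.5 and 40.1 CPM with DMSO at 12, 24 and 48 h, at 59.9, 76.0 and 95.6 CPM with olaparib and at 62.4, 82.2 and 140.3 CPM with talazoparib. Its mean inhibitor effect was 1.04 ± 0.22 (adjusted p = 0.0445), its change per doubling of the hours 0.57 ± 0.13 (adjusted p = 0.000195) and its shEVI1-2532 effect 1.49 ± 0.23 (adjusted p = 0.000244). PTPRJ, another receptor phosphatase that acts on Src family kinases, stood at 44.4 and 51.6 CPM with NTC, 146 and 177 CPM with shEVI1-2531 and 153 and 290.4 CPM with shEVI1-2532. It rose with both shRNAs, by 1.75 ± 0.17 (adjusted p = 5.91e-05) and 2.15 ± 0.17 (adjusted p = 2.66e-06), and its inhibitor effect grew by 0.80 ± 0.13 per doubling of the hours (adjusted p = 5.51e-08).

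Of the 20 controllers tested, 3 were called higher in the mean effect, 3 higher and 2 lower in the change with hours, 3 higher with shEVI1-2532 and 2 higher with shEVI1-2531. NMT2, one of the enzymes that attach the myristoyl anchor, had a mean effect of 0.71 ± 0.15 (adjusted p = 0.0468). For MATK, the CSK homologue of blood cells, the log2 ratio to DMSO changed by -0.40 ± 0.13 per doubling of the hours (adjusted p = 0.0173). MATK was at 0.929 and 0.884 times the DMSO level with olaparib and talazoparib at 12 h and at 0.584 and 0.483 times at 48 h, while DMSO itself went from 199.9 to 178 CPM. The ubiquitin ligase gene CBLB had a change of -0.49 ± 0.14 (adjusted p = 0.00526) and the phosphatase gene PTPN12 one of 0.41 ± 0.13 (adjusted p = 0.0134, 0.122 with library totals as scaling and 0.00754 to 0.122 over all alternatives). The list's median log2 value was 0.12 for the mean effect and 0.38 for shEVI1-2532. Without the 24 h libraries no gene of any kind passed in the mean effect (0 of 16613, 2176 at an unadjusted p under 0.05), PTPRE then having 0.92 and NMT2 0.80. NMT2 did not pass without the 12 h libraries either (0.68). Without NTC day 3, 5 controllers were called with shEVI1-2532.

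Of the 13 related and partner kinases tested, 0 were called in the mean effect by edgeR (5 at an unadjusted p under 0.05, 3 called by DESeq2) and 2 were called higher in the change with hours. With shEVI1-2532 the focal adhesion kinase gene PTK2 rose by 1.20 ± 0.18 (adjusted p = 0.00027, but 0.90 and under the fold limit with library totals) and the kinase gene TEC changed by -1.27 ± 0.16 (adjusted p = 6.81e-05), and with shEVI1-2531 0 passed by edgeR or DESeq2 (0 at an unadjusted p under 0.05 by edgeR). The list's median log2 value was 0.11 for the change with hours, 0.00 for shEVI1-2532 and -0.15 for shEVI1-2531.

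ITAM-bearing chains, the substrates through which the family starts immune receptor signals, differed in direction with the shRNAs. TYROBP (DAP12), the ITAM adaptor of myeloid receptors, stood at 162 and 149 CPM with NTC, 438 and 298 CPM with shEVI1-2531 and 1005 and 761 CPM with shEVI1-2532. It rose by 1.22 ± 0.14 (adjusted p = 0.000139) and 2.49 ± 0.14 (adjusted p = 2.82e-07), and its inhibitor effect grew by 1.10 ± 0.14 per doubling of the hours (adjusted p = 8.37e-14). With shEVI1-2532 the Fc receptor gene FCGR2A rose by 2.52 ± 0.15 (adjusted p = 3.5e-07) and the Fc receptor gamma chain gene FCER1G by 1.72 ± 0.14 (adjusted p = 2.49e-06), and their inhibitor effects grew by 1.03 ± 0.14 (adjusted p = 3.07e-12) and 0.80 ± 0.13 (adjusted p = 4.51e-08). With shEVI1-2531 CLEC1B, a platelet receptor gene, rose by 1.45 ± 0.22 (adjusted p = 0.000827).

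The chains called lower with the shRNAs and named here belong to lymphoid receptors and to a dendritic cell receptor. CD3E, a T cell receptor chain, stood at 5.43 and 7.80 CPM with NTC, 1.23 and 1.19 CPM with shEVI1-2531 and 1.69 and 2.26 CPM with shEVI1-2532, a change of -2.43 ± 0.25 (adjusted p = 7.92e-05) and -1.74 ± 0.24 (adjusted p = 0.000142). CD79B, a B cell receptor chain, changed by -1.95 ± 0.34 (adjusted p = 0.00208) and -1.52 ± 0.34 (adjusted p = 0.00377), and CLEC9A by -1.62 ± 0.26 (adjusted p = 0.00136) and -1.82 ± 0.27 (adjusted p = 0.0002). CD79B did not pass for shEVI1-2532 without NTC day 6 (-0.89) or shEVI1-2532 day 6 (-0.87). Of the 12 chains tested, 5 were called higher and 3 lower with shEVI1-2532, 2 and 4 with shEVI1-2531, 5 and 1 in the change with hours, and 0 in the mean effect by edgeR (8 at an unadjusted p under 0.05, 7 called by DESeq2). Without NTC day 6, 5 chains in all were called with shEVI1-2532. The list's median log2 value was 0.76 for the mean effect and 0.43 for the change with hours.

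ITIM-bearing receptors, through which LYN in particular sends inhibitory signals, were counted in the same comparisons. Of 12 tested, 11 were called higher in the change with hours, 11 higher and 1 lower with shEVI1-2532 and 4 higher with shEVI1-2531, but 0 in the mean effect by edgeR (9 at an unadjusted p under 0.05, 6 called by DESeq2). PILRA, a receptor of myeloid cells, stood at 9.39, 8.14 and 9.26 CPM with DMSO, 11, 19.8 and 65.1 CPM with olaparib and 14.3, 28.3 and 102 CPM with talazoparib. Its inhibitor effect grew by 1.35 ± 0.14 per doubling of the hours (adjusted p = 9.31e-19), and it rose by 2.50 ± 0.16 with shEVI1-2532 (adjusted p = 6.19e-07) and by 1.07 ± 0.15 with shEVI1-2531 (adjusted p = 0.000661). The shEVI1-2531 value fell under the fold limit without NTC day 3 (0.95) and with library totals (0.90).

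CD300LF, an inhibitory receptor of myeloid cells, stood at 24.7, 22.1 and 19.3 CPM with DMSO and at 137 and 198 CPM with olaparib and talazoparib at 48 h. Its change with hours was 1.39 ± 0.14 (adjusted p = 7.51e-21) and its shEVI1-2531 effect 1.46 ± 0.23 (adjusted p = 0.00108). FCGR2B, the inhibitory Fc receptor gene, changed by 2.54 ± 0.26 with shEVI1-2532 (adjusted p = 1.35e-05) and by 1.04 ± 0.14 per doubling of the hours (adjusted p = 1.11e-11). It shares near-identical sequence with FCGR2A and FCGR2C, so reads could be split between these genes. SIRPA, the receptor of the CD47 signal, rose by 1.36 ± 0.14 with shEVI1-2532 (adjusted p = 1.32e-05) and CLEC12A by 1.46 ± 0.20 with shEVI1-2531 (adjusted p = 0.000422). CD72, a B cell receptor gene, was the one called lower, at -1.06 ± 0.27 with shEVI1-2532 (adjusted p = 0.00761), and it did not pass without NTC day 6 (-0.72) or shEVI1-2532 day 6 (-0.78). The list's median log2 value was 1.38 for shEVI1-2532 and 0.70 for shEVI1-2531.

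Adaptors and effectors downstream of the kinases moved in both directions. DOK3, an adaptor that restrains immune receptor signals, rose by 1.36 ± 0.13 with shEVI1-2532 (adjusted p = 9.07e-06), and the inhibitor effect on DOK2 and DOK3 grew by 0.75 ± 0.13 (adjusted p = 4.75e-07) and 0.71 ± 0.13 (adjusted p = 2.41e-06). GAB2, a docking protein gene, rose by 1.60 ± 0.16 with shEVI1-2532 (adjusted p = 1.15e-05) and HCLS1, a blood cell cortactin homologue, by 1.25 ± 0.14 (adjusted p = 2.26e-05). PLCG1, the phospholipase gene downstream of T cell and growth factor receptors, stood at 11 and 20.9 CPM with NTC, 4.47 and 6.79 CPM with shEVI1-2531 and 4.15 and 3.97 CPM with shEVI1-2532. PLCG1 changed by -1.47 ± 0.23 (adjusted p = 0.00117) and -1.89 ± 0.24 (adjusted p = 6.24e-05), and its change with hours was -0.64 ± 0.14 (adjusted p = 0.000107). VAV3, an exchange factor gene, changed by -1.84 ± 0.16 with shEVI1-2532 (adjusted p = 4.19e-06) and by -0.40 ± 0.13 with hours (adjusted p = 0.017).

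Of this list 33 genes were tested in the PARPi experiment, with 0 called in the mean effect by edgeR (12 at an unadjusted p under 0.05, 7 called by DESeq2) and 4 higher and 3 lower in the change with hours. The other 2 named for the change with hours were GAB2 at 0.47 ± 0.14 (adjusted p = 0.00547) and GAB1 at -0.41 ± 0.15 (adjusted p = 0.0366). In that comparison GAB1 did not pass with DESeq2 (adjusted p = 0.0939) or without the count filter (adjusted p = 0.0679), VAV3 not with DESeq2 (adjusted p = 0.0584) and GAB2 not with library totals (adjusted p = 0.0758). Over all alternatives adjusted p ran from 0.0112 to 0.0939 for GAB1, from 0.00511 to 0.0584 for VAV3 and from 0.00357 to 0.0758 for GAB2. With library totals HCLS1 fell under the fold limit for shEVI1-2532 (0.95). Of 34 tested in the knockdown experiment, 6 were called higher and 3 lower with shEVI1-2532, and 1 lower with shEVI1-2531. The list's median log2 value was 0.33 with shEVI1-2532 and 0.05 with shEVI1-2531.

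**Figure D5:**
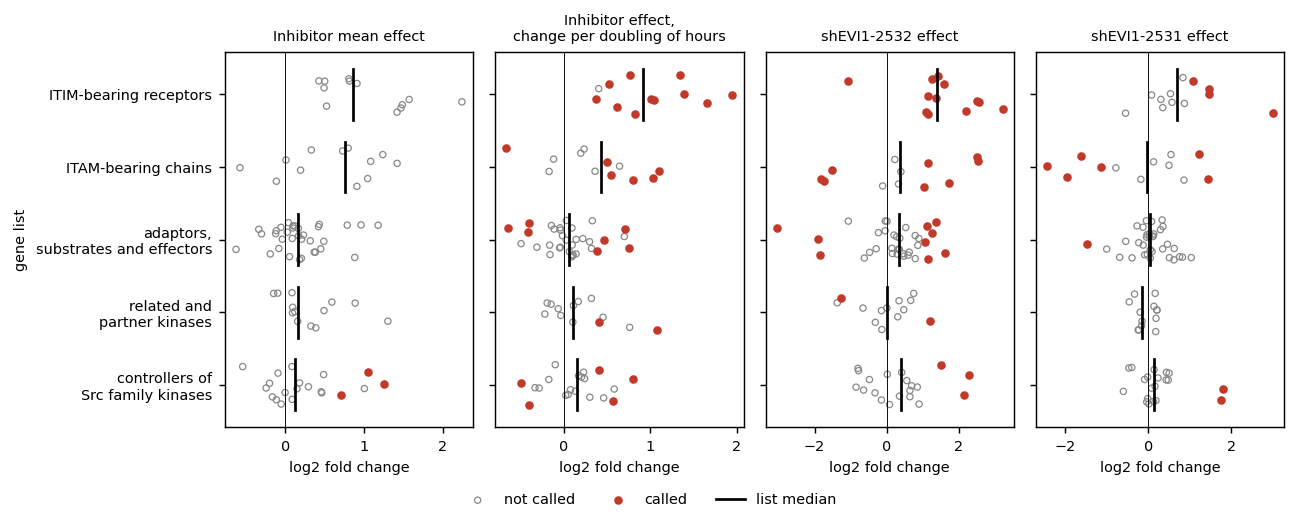
Points are log2 fold changes (x axis, a scale of its own in each panel) of the tested genes in 5 lists (y axis) in 4 comparisons, filled where the gene was called, with a bar at each list's median. The ITIM-bearing receptors lie farthest to the right, with a median of 1.38 for shEVI1-2532 and 0.92 for the change with hours, and the ITAM-bearing chains spread to both sides.

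The genes whose pattern over the 15 libraries other than untreated was most like that of a member were sought by Pearson's r of log2 CPM among 11166 genes, each experiment centred on its own mean. They were INKA2 (0.963), FADS3 (0.95) and BTG2 (0.943) for SRC, and LAMP1 (0.976), PIK3R3 (0.960) and ZDHHC3 (0.952) for FGR. LAMP1 encodes a lysosomal membrane protein and PIK3R3 a regulatory subunit of PI3 kinase. For LYN they were CIR1 (0.937), MRC1 (0.925) and MYO15B (0.923), and for FYN SP6 (0.906), CX3CR1 (0.868) and TDRKH (0.861). For YES1 they were KIF3A (0.900), ARIH1 (0.899) and SAV1 (0.894), for LCK APC (0.930), SPTBN1 (0.930) and LRRFIP2 (0.927), and for CSK LARP1 (0.974), ARHGAP17 (0.973) and EZR (0.968). The 15 libraries share treatments, times and depth within 2 experiments, so these values are a description.

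The promoters of FGR and LCK are shown because these genes lay on opposite sides of NTC in all shEVI1 libraries. RefSeq (GRCh38.p14) gives 2 start sites for each, and the 250 bases before each site are printed 5′ to 3′ on the gene's strand, with matches to the motifs searched in capitals.
FGR site 1, chr1:27635186-27635435, minus strand: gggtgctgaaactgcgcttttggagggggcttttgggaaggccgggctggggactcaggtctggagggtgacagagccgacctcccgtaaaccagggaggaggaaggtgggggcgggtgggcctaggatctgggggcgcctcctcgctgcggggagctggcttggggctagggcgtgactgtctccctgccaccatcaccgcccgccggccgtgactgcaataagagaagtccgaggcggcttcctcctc
FGR site 2, chr1:27626598-27626847, minus strand: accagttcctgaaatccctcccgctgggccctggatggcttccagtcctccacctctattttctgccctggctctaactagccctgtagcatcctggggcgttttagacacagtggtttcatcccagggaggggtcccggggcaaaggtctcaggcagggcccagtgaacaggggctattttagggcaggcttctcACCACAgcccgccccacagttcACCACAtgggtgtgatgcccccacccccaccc
LCK site 1, chr1:32251015-32251264, plus strand: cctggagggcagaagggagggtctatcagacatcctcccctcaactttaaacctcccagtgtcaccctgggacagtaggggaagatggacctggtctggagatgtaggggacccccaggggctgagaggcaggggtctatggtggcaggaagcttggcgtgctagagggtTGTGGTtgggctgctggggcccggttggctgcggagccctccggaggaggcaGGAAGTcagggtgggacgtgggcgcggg
LCK site 2, chr1:32273871-32274120, plus strand: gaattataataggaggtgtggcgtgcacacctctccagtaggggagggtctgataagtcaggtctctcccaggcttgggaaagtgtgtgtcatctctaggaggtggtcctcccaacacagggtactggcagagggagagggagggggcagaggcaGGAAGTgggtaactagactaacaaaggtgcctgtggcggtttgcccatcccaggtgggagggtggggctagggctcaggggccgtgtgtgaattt
The motifs, read on both strands, were GGAAGT for the ETS family, TGTGGT for RUNX factors, TTGCNNAA for C/EBP factors and AGATAA for GATA factors and zinc fingers of EVI1. FGR site 2 held 2 RUNX matches, LCK site 1 an ETS and a RUNX match and LCK site 2 an ETS match, and FGR site 1 held none of the 4. Of 35116 RefSeq promoters with the same window, 19.5% held the ETS, 11% the RUNX, 9.05% the C/EBP and 9.17% the GATA letters. YES1 and CSK held no match, and of the 4 FYN sites 1 held a C/EBP and a GATA match. The letters AGATAA were not found in the FGR and LCK windows, which describes these letters and these 250 bases only. Other forms of the GATA motif were not searched, such as TGATAA, which LCK site 2 holds.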

How the data were processed

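RNA-Seq libraries of MUTZ-3 cells (16, 1 per condition) were prepared with a kit that keeps strand. The authors deposited raw counts per gene, and submitters' processing notes name STAR, Picard, featureCounts and the build hg38 (GRCh38). Versions, annotation and the strand setting are not given in the sources used here. The deposited TPM values were not used, as they divide the counts by the whole gene span.

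Samples were grouped by the labels. The file name of shEVI1-2531 carries another shRNA number, so its identity rests on the label. The 8 genes and the gene lists were chosen with earlier results of these data known. Genes reaching 10 counts in 3 or more of 9 PARPi libraries (untreated cells left out) or in 2 or more of 6 knockdown libraries were kept, scaled by TMM and fitted with edgeR 4.0.16 (R 4.3.3) quasi-likelihood models. The PARPi models held time point, olaparib and talazoparib, and for the change with hours also their products with log2 hours. The knockdown model held day and both shRNAs. With 1 library per condition the residual degrees of freedom (4, 2 and 2) rest on treatments and times sharing an effect, and p-values measure spread between these libraries, which may be technical. P-values were adjusted by Benjamini-Hochberg over all genes tested.

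Ratios of single libraries carry exact 95% intervals (Clopper-Pearson), and intervals and the limit of 3 counts cover counting error only. Levels between genes were compared per kilobase of GENCODE 29 exons, and coordinates, identifiers and spans matched that release for 76.7% of genes. Named list genes were up to 3 per direction, list and comparison with the smallest p among those called at a mean log2 CPM above 1. An item that this rule also named is not reported here. DESeq2 1.42.0, other scalings, no count filter, no time or day term and leaving out libraries were tried. On simulated data the fits recovered 200 of 200 changed genes in the mean effect, in the change with hours and for shEVI1-2532, with 7 to 9 false calls. The simulation used a fixed effect size, equal for both inhibitors, and a fixed spread. It held no effect of time or day apart from treatment, so the recovery holds for these settings only.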

Additional observations from a re-analysis of the deposited data

Results flagged for a closer look

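YES1 differed between the shRNAs, with a log2 fold change of 0.65 (SE 0.18, edgeR adjusted p = 0.0208) for shEVI1-2532 minus shEVI1-2531, and both shEVI1-2532 libraries lay above both shEVI1-2531 libraries. It did not pass in 4 of 11 alternatives, with adjusted p = 0.0724 with library totals as scaling, 0.181 without the day in the model, and 0.262 and 0.318 without the day 3 library of either shRNA, and adjusted p ran from 0.00102 to 0.318 over all alternatives. This difference is made of shEVI1/NTC ratios already known when the genes were chosen, so these p-values are a description.

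LCK was above DMSO in both inhibitor libraries at 24 h and below it in both at 48 h. The mean log2 ratio at 48 h minus that at 24 h was -1.59. This difference was not tested on its own, and the DMSO level at 24 h, 2.62 CPM, was the lowest of the 3.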

How the results depend on the processing

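The mean inhibitor effect was the comparison that depended most on the processing. Its 718 calls over all genes and 3 in the lists became 468 and 1 with library totals as scaling, 3728 and 31 without a count filter, 3474 and 30 with DESeq2, and 16 and 0 without the time point in the model. Leaving out 1 time point gave 0 calls (24 h, 2176 genes at an unadjusted p under 0.05) to 3768 (12 h), and 0 to 35 in the lists, so a single set of 3 libraries decides it. Without the day in the model, shEVI1-2531 gave 565 calls in place of 1483, and 5 in place of 13 in the lists, and the shRNA difference 921 in place of 4505. Leaving out 1 library gave 2861 (shEVI1-2532 day 3) to 4972 calls for the shRNA difference and 2345 (NTC day 3) to 4018 for the day in place of 4430. The shRNA difference was also 2918 without shEVI1-2531 day 3, and the day effect 2390 without NTC day 6. The counts of the change with hours and of shEVI1-2532, over all genes and over all lists together, stayed within 1.5 times under the alternatives run. Single lists did not: for shEVI1-2532, controllers went from 3 to 6, adaptors from 9 to 5 and related kinases from 2 to 1 with library totals, controllers to 5 without NTC day 3 and ITAM-bearing chains from 8 to 5 without NTC day 6, and for the change with hours related kinases went from 2 to 0 with library totals and to 1 with DESeq2 or without the count filter. Without the day in the model, CD79B, CLEC12A, CLEC9A, PILRA, PLCG1 and TYROBP did not pass for shEVI1-2531, nor CD79B for shEVI1-2532. CD79B also did not pass for the change with hours with DESeq2, nor NMT2 for the mean effect with library totals or PTPRE and NMT2 for it without the time point.

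Of the members, the direction of the shRNA difference of LCK depended on 1 library (-0.10 to 1.60 on leaving out each). The log2 day effects near 0 changed sign: SRC from -0.02 to 0.13, LYN from -0.01 to 0.14 and YES1 from -0.02 to 0.13 with library totals, and LYN to 0.00487 with RLE scaling and 0.00487 with DESeq2. Leaving out 1 library gave -0.26 to 0.37 for SRC, -0.0661 to 0.0603 for LYN and -0.19 to 0.13 for YES1. Mean log2 ratios of members to their controls moved by more than their SD only with library totals in the knockdown experiment, FGR from 3.49 to 3.25 and LYN from -0.09 to -0.33. The causes were not tested. No fit with a replicate block could be made because each condition has 1 library, and the time point or day was a term of the models. The change with hours had too few libraries to leave out a time point. Depth limits LCK, with 37 to 466 counts per library, more than LYN or CSK.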
